A study of Mus musculus with 868 samples.

Results

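The 9 genes described here are made mainly by red cell precursors and were chosen by name. They are the adult globin genes Hbb-bt, Hbb-bs, Hba-a1 and Hba-a2, the haem synthesis enzyme Alas2, the membrane anion exchanger Slc4a1, the ring finger protein Trim10, and the transcription factors Klf1 and Gata1. They are 9 of the 24421 gene symbols in each tissue table. The tables hold counts of 3′ mRNA reads from 24 tissues of C57BL/6N mice, in 868 libraries of 18 treatment groups, of which 15 are drugs and 3 are controls. Each group has 2 libraries per tissue, except for 4 with Asenapine in brain and 4 with Sofosbuvir in jejunum. All groups share the strain, and no group carries a genetic change. The labels do not give the age.

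The drug groups were Cisplatin, EMPA, Teriparatide, Dox, Aripiprazole, Clozapine, Lenalidomide and Repatha, which were set against CMCTween (0.5% CMC with 0.25% Tween80). APAP and Sofosbuvir were set against Sucrose (5%) and the mice without treatment (Untreated) together, and Sucrose was also set against Untreated. Alendronate, Risedronate, Asenapine, Lurasidone and Olanzapine had no control group among comparable libraries, and each of these drugs was set against the other 4. These 3 library sets of 432, 194 and 242 libraries were read from the expression values and the tables' columns, not from the labels. As for times and doses, APAP is labelled 2 hours, EMPA is labelled oral for 2 weeks and Dox is labelled 2 mg per mL, and nothing more is stated for any drug, its vehicle included. The labels do not say that replicate libraries came from separate mice, or whether 1 mouse gave several tissues. P-values then measure only the spread between libraries, which may be technical.

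Total counts ran from 451154 to 12811780 per library, with the 48 Untreated libraries at 2875950 or more. In the marrow-bearing tissues and the spleen they ran from 500613 to 4962678 in BM, from 513063 to 4268769 in Skull and from 503903 to 4324926 in Spleen. Levels are given as CPM, the count of a gene scaled to the total of its library. In a library of 500613 reads 1 read is worth about 2 CPM, so a gene at a few CPM rests on a handful of reads. No 2 replicate libraries of a group were identical, and in all 442 pairs the counts differed by more than sampling noise. The tissue labels were borne out by marker genes: in the CMCTween libraries a neutrophil list summed to 81340 and 73210 CPM in BM and to 28320 and 27740 CPM in Skull, a bone list to 60790 and 46370 CPM in Skull, and a B cell list to 1899 and 1933 CPM in Spleen.

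Red cells are made in the bone marrow and, in mice, also in the spleen. Early precursors depend on the transcription factors Gata1 and Klf1, which bind DNA at GATA and CACCC-type motifs and switch on the genes of haemoglobin, haem synthesis and the red cell membrane. Alas2 makes the first haem precursor in red cells, Slc4a1 (band 3) exchanges chloride and bicarbonate and anchors the cytoskeleton, and Trim10 is needed late in terminal maturation. A short form of Slc4a1 is also made in the acid-secreting cells of the kidney.

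The promoters of 4 members with measurable counts are shown because GATA factors are the known regulators of this group and Gata1 is itself a member. Each covers 250 bases before to 50 after the gene start, from RefSeq (GRCm38.p6). The motif searched was AGATAA or TGATAA on both strands, and the capitals mark each match, so a match on the minus strand reads TTATCT or TTATCA. The windows are chrX:150547167-150547466 (plus strand) for Alas2, chr17:36869324-36869623 (plus strand) for Trim10, chr8:84901732-84902031 (plus strand) for Klf1 and chrX:7967861-7968160 (minus strand) for Gata1.
Alas2: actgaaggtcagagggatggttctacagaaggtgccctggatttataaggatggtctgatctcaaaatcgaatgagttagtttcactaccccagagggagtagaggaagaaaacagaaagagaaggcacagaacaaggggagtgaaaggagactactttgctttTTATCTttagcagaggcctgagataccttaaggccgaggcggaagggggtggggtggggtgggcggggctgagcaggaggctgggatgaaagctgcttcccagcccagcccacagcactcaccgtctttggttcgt
Trim10: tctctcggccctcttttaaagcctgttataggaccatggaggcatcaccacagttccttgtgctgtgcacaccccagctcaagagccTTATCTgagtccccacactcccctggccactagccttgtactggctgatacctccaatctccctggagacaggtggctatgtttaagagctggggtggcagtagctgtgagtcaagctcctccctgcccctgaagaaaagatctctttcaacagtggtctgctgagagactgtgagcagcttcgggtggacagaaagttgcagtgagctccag
Klf1: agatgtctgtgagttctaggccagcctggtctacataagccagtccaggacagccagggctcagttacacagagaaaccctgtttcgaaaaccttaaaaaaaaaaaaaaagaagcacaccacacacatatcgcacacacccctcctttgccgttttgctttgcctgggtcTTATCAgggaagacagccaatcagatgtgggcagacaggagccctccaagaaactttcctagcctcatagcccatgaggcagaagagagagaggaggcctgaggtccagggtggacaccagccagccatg
Gata1: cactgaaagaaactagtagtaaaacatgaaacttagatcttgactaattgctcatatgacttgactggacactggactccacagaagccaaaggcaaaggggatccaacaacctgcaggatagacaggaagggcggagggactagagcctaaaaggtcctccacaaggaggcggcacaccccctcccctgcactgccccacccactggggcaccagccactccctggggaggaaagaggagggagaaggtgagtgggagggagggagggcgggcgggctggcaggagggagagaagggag
Alas2, Trim10 and Klf1 each held 1 match, at -86, -163 and -80 bases from the start and all on the minus strand. The Gata1 window held none. It is set on the RefSeq start, which lies inside the longer GENCODE gene, so it does not cover the upstream end of that gene. Among the globin members Hbb-bs, Hba-a1 and Hba-a2 held 1 match each, at -210, -183 and -186, and Hbb-bt held none. The table held 8 of the 9 members. Of all 32851 promoters in it, 6115 (18.6%) held at least 1 match, and a match is a string of letters, not a shown binding site.

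The 4 globin members could not be followed in these tables. Hbb-bt, Hbb-bs and Hba-a1 were listed at 0 counts in all 868 libraries, BM included, and Hba-a2 had 3 counts in 3 libraries. The older names Hbb-b1 and Hbb-b2 were also at 0. Other globin genes were counted. The theta globin genes Hbq1b and Hbq1a had 2805 counts in 155 libraries and 615 counts in 142 libraries, of which 1915 and 349 were in BM, and the embryonic genes Hbb-bh1, Hbb-y and Hba-x had 34, 42 and 19 counts. The adult globin genes come in pairs of copies that share part of their sequence. Of the stretches of 75 bases in the last 300 bases of the transcript, 29.2% of those of Hbb-bt were also in Hbb-bs, and 29.6% of those of Hbb-bs in Hbb-bt. For the alpha pair the shares were 66.8% of those of Hba-a1 in Hba-a2 and 59.7% of those of Hba-a2 in Hba-a1. The part of shared sequence in the zeros was not tested. Every result that follows therefore rests on Alas2, Slc4a1, Trim10, Klf1 and Gata1.

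Those 5 members passed the filter on low counts in BM, Skull and Spleen. Alas2 and Slc4a1 passed in Kidney, Lung and PituitaryG, Alas2 and Gata1 passed in Testis, and only Alas2 passed in 13 other tissues. No member passed in Colon, Ileum, Pancreas or Stomach. In mm10, with GENCODE M21, Alas2 lies at chrX:150547375-150570638, Slc4a1 at chr11:102348824-102366203, Trim10 at chr17:36869574-36877833, Klf1 at chr8:84901928-84905291 and Gata1 at chrX:7959260-7978071. Counts are of whole genes, so exons and isoforms were not told apart.

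In Untreated mice all 5 members had their highest mean level in BM, with Skull between Spleen and BM. Alas2 had 658 and 655 CPM in Spleen, 1113 and 1032 CPM in Skull, and 2489 and 3130 CPM in BM. Slc4a1 had 94.6 and 180 CPM in Spleen, 654 and 629 CPM in Skull, and 1413 and 1662 CPM in BM. Trim10 had 10.4 and 30.3 CPM in Spleen, 75 and 75.4 CPM in Skull, and 241 and 238 CPM in BM. The 3 tissues did not overlap for any of these 3 genes. The transcription factors were lower in CPM: Klf1 had 6.94 and 13.9 CPM in Spleen, 62.5 and 46.9 CPM in Skull, and 77.0 and 101 CPM in BM, and Gata1 had 5.78 and 6.01 CPM in Spleen, 41.7 and 30.5 CPM in Skull, and 44.9 and 47.7 CPM in BM. For these genes too, the libraries of the 3 tissues did not overlap. How many of all genes separated in this way was not counted. In bulk tissue, fewer red cell precursors and less of a transcript per cell cannot be told apart.

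**Figure D1:**
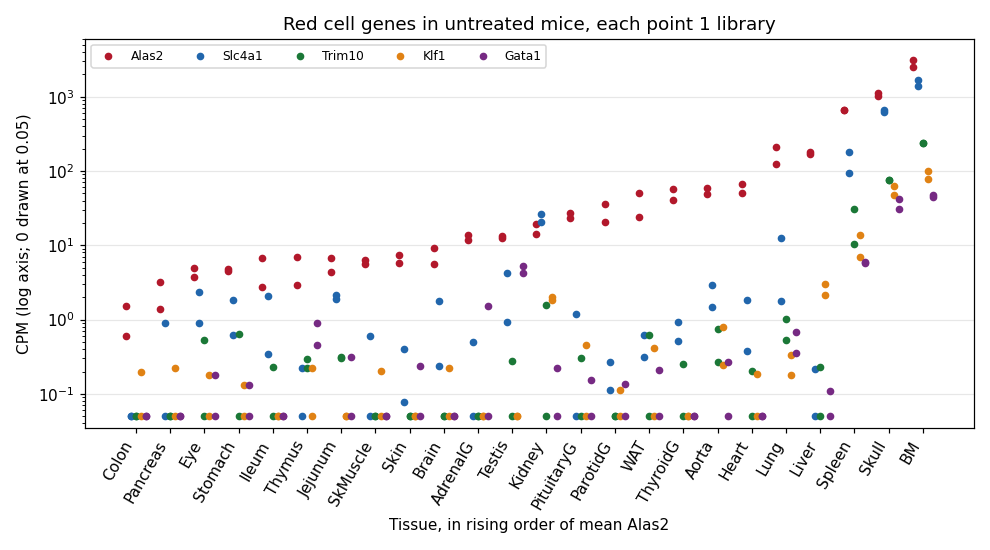
CPM (log axis, 0 drawn at 0.05) of the 5 measurable members in the 24 tissues of Untreated mice, 1 point per library and 2 libraries per tissue, with tissues in rising order of their mean Alas2. All 5 genes are highest in BM, and only Alas2 stays above 1 CPM on average in every tissue.

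In edgeR's quasi-likelihood test with Benjamini-Hochberg adjustment, Skull was lower than BM in 4 of the 5 members, where 18.7% of all genes were lower. With 2 libraries per tissue, the log2 difference was -1.76 ± 0.28 (SE) for Alas2 (adjusted p = 1.2e-05), -1.63 ± 0.37 for Slc4a1, -2.04 ± 0.33 for Trim10 and -1.07 ± 0.27 for Klf1. For Gata1 it was -0.73 ± 0.31 (adjusted p = 0.0604). The Klf1 call was lost without BM replicate 4 (-0.87) and without Skull replicate 3 (-0.89). It was also lost with column sums as library sizes and with a replicate block. Over all alternatives the Klf1 difference ran from -1.26 to -0.65. The Slc4a1 call was lost with DESeq2.

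Spleen was lower than BM in all 5 members, against 16.3% of all genes. The log2 differences were -2.41 ± 0.29 for Alas2, -3.81 ± 0.41 for Slc4a1, -3.90 ± 0.37 for Trim10, -3.42 ± 0.32 for Klf1 and -3.28 ± 0.37 for Gata1. Against Skull, Spleen was lower in 4 members (17.4% of all genes), by -1.86 to -2.55, while Alas2 differed by -0.65 ± 0.27 (adjusted p = 0.0689). Alas2 did pass with column sums as library sizes, RLE scaling, DESeq2 and a fit that was not robust. Its difference ran from -0.76 to -0.61 over all alternatives. The Slc4a1 call against Skull was lost with DESeq2. The level of Slc4a1 as a percentage of that of Alas2 in the same library was 14.4 and 27.5 in Spleen, 58.7 and 61.0 in Skull, and 56.8 and 53.1 in BM. Since 3′ counts of different genes may be captured unequally, only the change of this ratio between tissues can be read. The 2 spleen libraries were both below the 4 marrow-bearing ones.

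Outside these 3 tissues Alas2 was the one member present at more than a few CPM nearly everywhere. Its mean over the 21 other tissues ran from 1.05 CPM in Colon to 176 CPM in Liver, with a median of 12.8 CPM. Liver had 180 and 172 CPM and Lung 125 and 209 CPM, and these overlapped. Heart (50.8 and 66.4 CPM), Aorta (48.3 and 58.8 CPM), ThyroidG (40.5 and 56.7 CPM) and WAT (24.3 and 50 CPM) followed, each overlapping the next. Kidney had 19.2 and 14.4 CPM, Testis 13.4 and 12.4 CPM, and Brain 9.25 and 5.53 CPM. In the order of the tissue means, the libraries of neighbours were separate between BM, Skull, Spleen and Liver, between Lung and Heart, between PituitaryG, Kidney and Testis, between AdrenalG and Brain, and between Eye and Pancreas, and overlapped elsewhere.

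Slc4a1 broke from Alas2 in the kidney. Kidney had 26.7 and 20.8 CPM of Slc4a1, which is 139 and 144% of its Alas2, while Liver had 0.12 and 0%, and Lung 1.42 and 6.00%. Slc4a1 reached a mean of 1 CPM in 10 of the 21 tissues. Trim10 stayed at or below a mean of 0.791 CPM in all 21. Klf1 was highest in Liver, at 2.16 and 2.98 CPM, and in Kidney, at 1.83 and 2.04 CPM. Gata1 was highest in Testis, at 4.18 and 5.28 CPM. Gata1 is known to be made in the Sertoli cells of the mouse testis.

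Across the means of the 24 Untreated tissues the log2 levels of Slc4a1, Trim10, Klf1 and Gata1 were alike, with Pearson r between 0.901 and 0.969, and those of Alas2 followed them with r between 0.743 and 0.83. These are descriptions over tissues that share libraries and depth, and 3 tissues carry most of the range. Among 13922 other genes with at least 20 CPM in 1 tissue, the 10 most like the mean of the members had r between 0.962 and 0.973. Among them were Slfn14, Apol11b, Hbq1b, Rec114, Gm10371, Rhag (the Rh-associated glycoprotein), Redrum (a long noncoding RNA), Epor (the erythropoietin receptor) and Kel (the Kell blood group protein).

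With Cisplatin, a platinum compound that crosslinks DNA, almost no reads of the members were found in BM and Skull. In BM Alas2 had 2.41 and 2.71 CPM in the Cisplatin libraries, against 1114 and 1344 CPM in the CMCTween libraries. Slc4a1 had 0 and 2.71 CPM with Cisplatin and 1333 and 1639 CPM with CMCTween, Trim10 had 0 in both Cisplatin libraries and 375 and 372 CPM with CMCTween, and Klf1 had 0 in both Cisplatin libraries and 74.7 and 94.9 CPM with CMCTween. Gata1 was less far down, with 6.02 and 5.41 CPM in the Cisplatin libraries and 54.4 and 63.3 CPM in the CMCTween libraries. No member overlapped between the groups, but the share of all genes that separated was not counted.

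All 5 members were called lower in BM, where 11.1% of all genes tested were lower. Gata1 fell by 3.39 ± 0.38 on the log2 scale (adjusted p = 3.28e-12, edgeR). Slc4a1 had 2 counts over the Cisplatin group and 2969 over CMCTween, a ratio of CPM of 0.000841 with a 95% interval of 0.000102 to 0.00304 (conditional binomial). Klf1 was at least 45.4-fold lower and Trim10 at least 195-fold lower, computed against a floor of 3 counts over the group. These intervals and floors cover counting error only. The other 16 libraries of the same set give the range without Cisplatin: 871 to 1860 CPM for Alas2, 259 to 501 CPM for Trim10, 74.7 to 154 CPM for Klf1 and 44.0 to 93.9 CPM for Gata1.

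Skull gave the same 5 calls, with 5.39% of all genes lower. Alas2 had 4.86 and 4.30 CPM in the Cisplatin skulls and 353 and 572 CPM in the CMCTween skulls, and fell by 6.61 ± 0.32 on the log2 scale (adjusted p = 8.74e-19). Slc4a1, Trim10 and Klf1 were down to 1 read each over the Cisplatin group. Their ratios to CMCTween were 0.000847 (95% interval 2.14e-05 to 0.00473) for Slc4a1, 0.00387 (9.75e-05 to 0.0217) for Trim10 and 0.00986 (0.000247 to 0.0561) for Klf1. Gata1 had 1.62 and 10.8 CPM with Cisplatin and 37.8 and 64.0 CPM with CMCTween, and fell by 2.81 ± 0.45 (adjusted p = 1.04e-05).

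In Spleen only Alas2 passed the test, 1 of 5 members, where 2.74% of all genes were lower. It had 2.39 and 1.35 CPM in the Cisplatin spleens and 314 and 135 CPM in the CMCTween spleens. The ratio was 0.00809 (95% interval 0.00166 to 0.0238), with 3 counts against 407 (adjusted p = 0.00109). Slc4a1 had 2.39 and 0 CPM with Cisplatin and 66.1 and 34.0 CPM with CMCTween, with a ratio of 0.0244 (0.00291 to 0.0907) and an adjusted p of 0.246. Trim10 had 0 counts against 29, at least 8.81-fold lower (adjusted p = 0.244). Both genes were separate between the groups but spread widely in spleens: without Cisplatin, the set's libraries ran from 34.0 to 247 CPM for Slc4a1 and from 1.81 to 54.8 CPM for Trim10. Klf1 had 0 counts with Cisplatin and 4 with CMCTween, and Gata1 had 5 and 6 counts, at which depth a difference was not detectable. DESeq2 called 3 of the 5 members lower in Spleen.

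**Figure D2:**
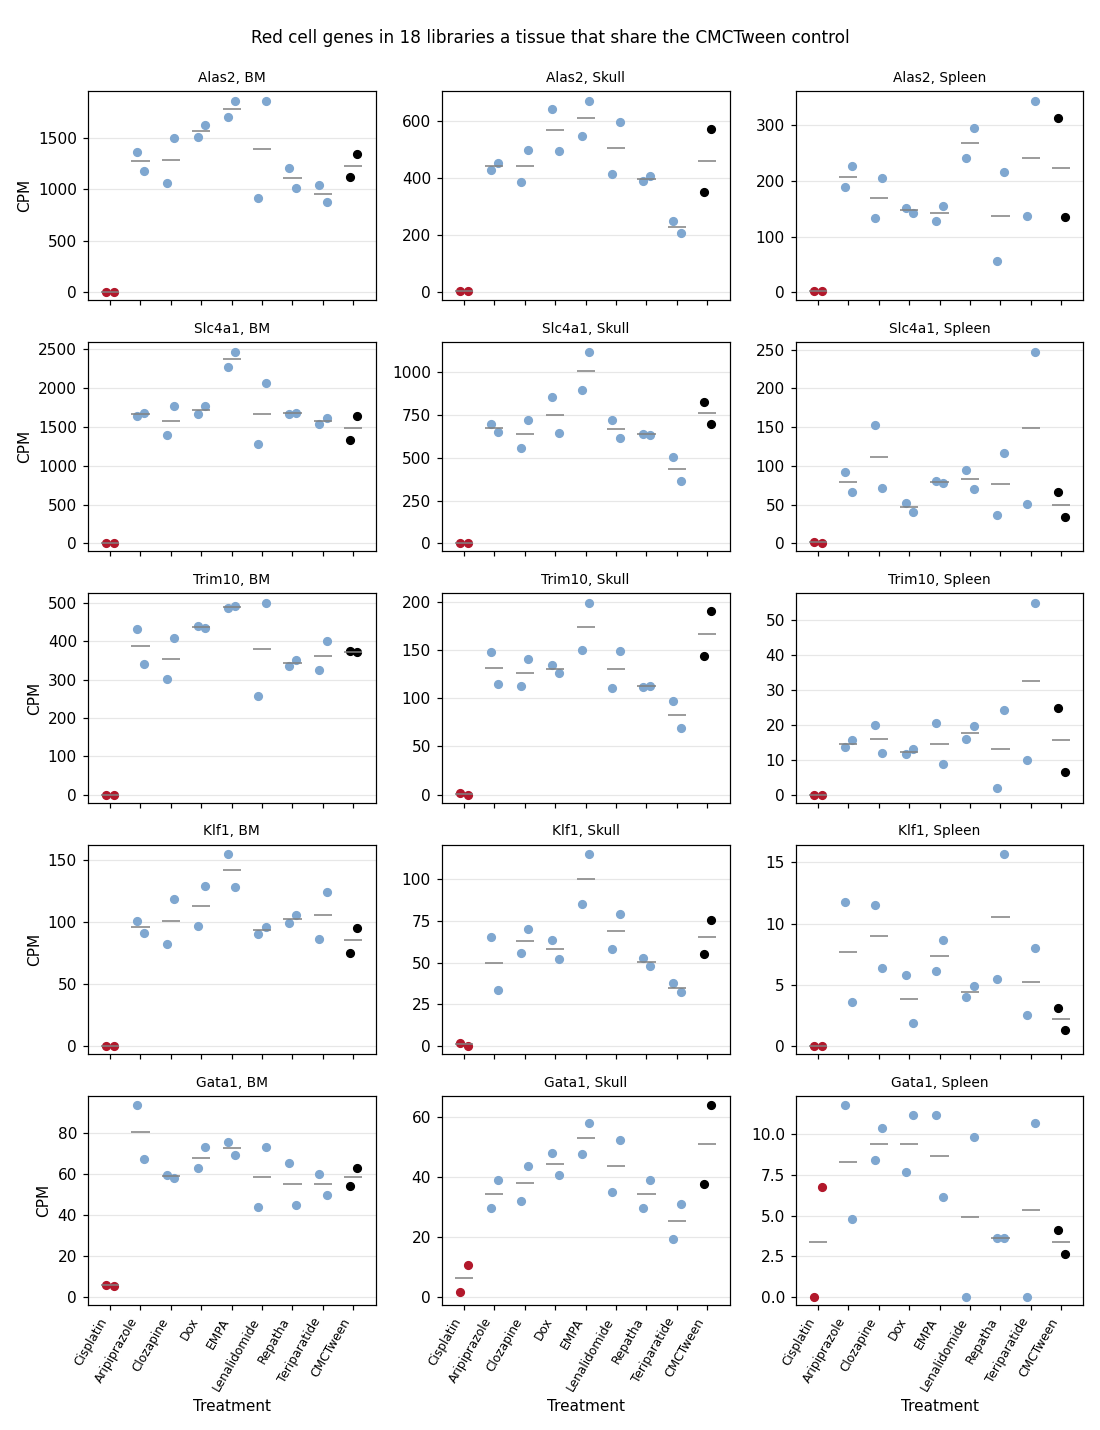
CPM of each member (rows) in BM, Skull and Spleen (columns), 1 point per library of the CMCTween set with Cisplatin (red) at the left and CMCTween (black) at the right, and a grey line at each group's mean. Both Cisplatin libraries lie at or near 0 for Alas2, Slc4a1, Trim10 and Klf1 in BM and Skull, and below every other library for Gata1, with up to 10.8 CPM in Skull.

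Whether the response differs between tissues was tested on its own, in a joint fit of the 3 tissues. None of 10 differences passed in edgeR after adjustment over all genes, and 1 had an unadjusted p under 0.05. That was Gata1 in Spleen minus BM, with a difference of 3.28 ± 1.34 (adjusted p = 0.143, edgeR). Klf1 and Trim10 in Spleen minus BM could not pass, with 0 counts under Cisplatin in both tissues and SEs of 10880 and 15966. Slc4a1 in Skull minus BM had an SE of 23.1, and the remaining SEs ran from 0.88 to 4.51. The tests therefore do not show that the response was alike in these tissues. Of all genes 7.69% differed between Spleen and BM and 0.464% between Skull and BM. No other tool was run on these differences. The Gata1 difference was called only when Spleen Cisplatin replicate 1 was left out (4.34).

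The other genes of red cell formation came from 4 lists of 51 genes in the tables. In BM with Cisplatin, 45 of the 49 tested were lower and none was higher, with a median log2 change of -4.30, against 0 over all genes. Of the haem synthesis and iron uptake list all 12 were lower (median -3.75). Slc25a37, which brings iron into mitochondria, had a mean of 90.9 CPM with Cisplatin and 1630 CPM with CMCTween, a change of -4.20 ± 0.24. Fech, which inserts iron into the haem ring, had 21.3 CPM against 572 CPM (-4.81 ± 0.35), Tfrc, the transferrin receptor, had 46.0 CPM against 485 CPM (-3.45 ± 0.18), and Cpox, a late haem enzyme, had 16.5 CPM against 325 CPM (-4.34 ± 0.23).

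All 15 tested membrane and cytoskeleton genes were lower in BM, with a median of -8.83, or -6.02 with the 5 genes at 0 set at their bounds. Rhd, the Rh blood group gene, had a mean of 0.602 CPM with Cisplatin and 349 CPM with CMCTween, and Ermap, the Scianna blood group gene, had 0.602 CPM against 334 CPM. Epb4.1, the cytoskeletal protein 4.1 that other cells also make, had 107 CPM against 1290 CPM (-3.65 ± 0.29). Of 12 further red cell genes 11 were lower. Car2, a carbonic anhydrase, had 8.65 CPM against 1560 CPM (-7.48 ± 0.39), Bnip3l, which helps clear mitochondria from maturing red cells, had 409 CPM against 1300 CPM (-1.71 ± 0.23), and E2f2, a cell cycle transcription factor, had 353 CPM against 766 CPM (-1.17 ± 0.13). Nfe2, shared with megakaryocytes, had 73.1 CPM against 100 CPM (-0.52 ± 0.20, adjusted p = 0.059).

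The regulators were the least uniform list, with 7 of 10 lower and a median of -1.31. Tal1, a partner of Gata1, had 10.8 CPM with Cisplatin and 220 CPM with CMCTween (-4.38 ± 0.26). Zfpm1, the Gata1 cofactor Fog1, had 11 CPM against 170 CPM (-4.00 ± 0.29), and Epor had 2.48 CPM against 59.3 CPM (-4.55 ± 0.46). Lmo2 and Myb, which earlier blood progenitors also make, changed by -1.31 ± 0.16 and -1.02 ± 0.18. Kit, the stem cell factor receptor, had 28.1 CPM against 44.0 CPM (-0.73 ± 0.29, adjusted p = 0.0671), Gata2 had 11.4 CPM against 20 CPM (-0.89 ± 0.43, adjusted p = 0.147), and Ldb1 had 29.3 CPM against 46.5 CPM (-0.73 ± 0.29, adjusted p = 0.068).

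Markers of other marrow cells moved too, and their part in the members' change was not tested. The 12 neutrophil genes summed to 91050 and 111300 CPM in the Cisplatin BM and to 81340 and 73210 CPM in the CMCTween BM, and 8 of the 12 were higher. The B cell list was lower in 9 of 9 tested genes, at sums of 191 and 206 CPM with Cisplatin and 680 and 654 CPM with CMCTween. The B cell genes Vpreb1 and Igll1 were at 0.602 and 0 CPM with Cisplatin. Of the macrophage and monocyte list 5 of 12 genes were higher, with sums of 2611 and 2697 CPM with Cisplatin and 1478 and 1611 CPM with CMCTween. No megakaryocyte gene passed among 9 tested (median -0.60), with sums of 466 and 154 CPM against 373 and 513 CPM. Of 6 mast cell and eosinophil genes tested 2 were lower, with sums of 1670 and 2471 CPM against 2706 and 2343 CPM. Of 12 cell cycle genes 8 were lower, with Mki67 at 519 CPM with Cisplatin and 1510 CPM with CMCTween (-1.60 ± 0.13).

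In Skull 44 of 49 red cell genes were lower with Cisplatin (median -3.17): 11 of 12 in the haem list, 15 of 15 in the membrane list, 11 of 12 further genes and 7 of 10 regulators. Slc25a37 had 70.1 CPM with Cisplatin and 760 CPM with CMCTween (-3.42 ± 0.20), and Tal1 had 16.4 CPM against 199 CPM (-3.55 ± 0.26). Kit, Gata2 and Ldb1 again did not pass, at -0.13, -0.35 and 0.18. Of the megakaryocyte genes 1 of 9 was lower, Pf4 at 249 CPM against 442 CPM (-0.80 ± 0.23). The neutrophil genes summed to 42490 and 50260 CPM in the Cisplatin skulls and to 28320 and 27740 CPM in the CMCTween skulls, and the bone genes to 24540 and 29650 CPM against 60790 and 46370 CPM. Of the cell cycle genes 7 of 12 were lower, with sums of 1463 and 1399 CPM against 2888 and 3091 CPM, and of the B cell genes 3 of 9, with sums of 251 and 252 CPM against 464 and 524 CPM. The part of these markers in the skull result was not tested.

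In Spleen 6 of 47 red cell genes were lower with Cisplatin (median -0.75, or -0.60 with genes at 0 set at their bounds), a count of 1 without Cisplatin replicate 1 and 3 without CMCTween replicate 3. The 6 were Bpgm, the 2,3-bisphosphoglycerate enzyme of red cells (10.8 CPM against 181 CPM, -4.06 ± 0.71), Ube2l6 (20.7 CPM against 142 CPM, -2.76 ± 0.57), Epb4.1 (103 CPM against 336 CPM, -1.70 ± 0.40), Kit (-1.73 ± 0.41), Myb (-1.56 ± 0.45) and Bcl11a (-0.69 ± 0.14), which B cells also make. No haem gene passed among 11: Fech had 22.1 CPM with Cisplatin and 77.9 CPM with CMCTween (-1.83 ± 0.65, adjusted p = 0.121), while Tfrc had 36.0 CPM against 40.5 CPM. The neutrophil genes summed to 1648 and 995 CPM in the Cisplatin spleens and to 178 and 119 CPM in the CMCTween spleens, and the cell cycle genes to 320 and 291 CPM against 799 and 942 CPM. Of the megakaryocyte genes 3 of 7 were lower, with sums of 162 and 182 CPM against 332 and 313 CPM, and the part of these markers was not tested.

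**Figure D3:**
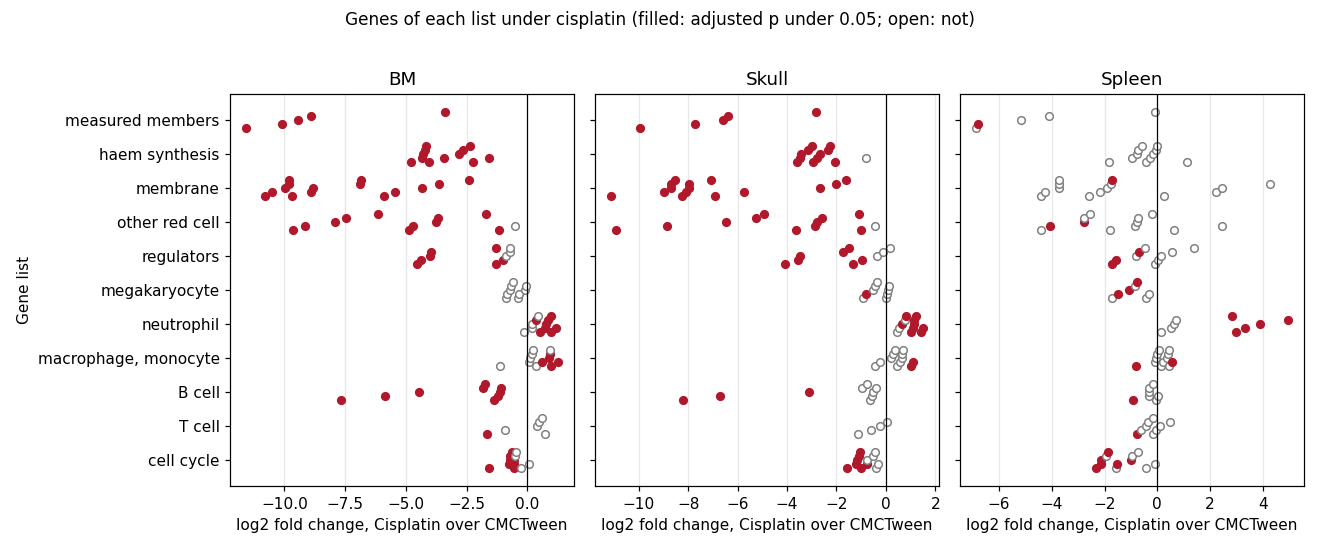
Log2 fold change of Cisplatin over CMCTween for each gene of the red cell lists and of other cell type lists in BM, Skull and Spleen, 1 point per gene, filled where the adjusted p is under 0.05. Fitted values of genes at 0 depend on the prior count. The red cell lists lie below 0 in BM and Skull, with medians from -1.31 to -8.83 in BM, and from -0.28 to -2.04 in Spleen, where the membrane list at -2.04 becomes -0.30 with its 4 genes at 0 set at their bounds.

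Reads of the members in the other 21 tissues were mostly of Alas2. With Cisplatin, 9 of 21 tests of members were called lower (42.9%, against 5.50% of all gene tests in those tissues), and none higher. Alas2 made up 8 of them, in 17 tissues tested. The share of all genes called lower in these 8 tissues was 1.88% in Aorta, 3.54% in Heart, 11.7% in Kidney, 4.57% in Liver, 2.42% in Lung, 3.2% in ParotidG, 2.18% in ThyroidG and 3.93% in WAT. In Lung Alas2 had 1.97 and 0.837 CPM in the Cisplatin libraries and 128 and 88.0 CPM in the CMCTween libraries, with a ratio of 0.0126 (95% interval 0.00257 to 0.0375). In Heart it had 4.77 and 1.32 CPM with Cisplatin and 59.1 and 59.7 CPM with CMCTween (-4.14 ± 0.69, adjusted p = 0.000354), and in ThyroidG 1.25 and 3.11 CPM against 55.0 and 107 CPM (-5.38 ± 0.90, adjusted p = 0.00126). Aorta had 1 read with Cisplatin and 69 with CMCTween, a ratio of 0.0207 (95% interval 0.000517 to 0.119). WAT had 3 reads against 80 (0.0411, interval 0.0083 to 0.124) and ParotidG 3 against 21 (0.119, interval 0.0228 to 0.399).

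Liver kept more Alas2 than these tissues: 12.7 and 15.5 CPM with Cisplatin and 61.5 and 66.7 CPM with CMCTween, a change of -2.08 ± 0.29 (adjusted p = 7.15e-07). In Kidney Alas2 changed by -1.89 ± 0.70 (adjusted p = 0.0373), a call that was lost when column sums were used as library sizes (adjusted p = 0.051). Kidney Slc4a1 had 4 counts over the Cisplatin group and 39 over CMCTween (-3.30 ± 0.57, adjusted p = 2.96e-06). Over all 21 tissues the Cisplatin libraries held 132 Alas2 reads and the CMCTween libraries 869. Both Cisplatin libraries lay below both CMCTween libraries in 16 tissues, the ranges overlapped in the other 5, and in no tissue did both lie above. The 16 include Ileum (1 read with Cisplatin and 6 with CMCTween), SkMuscle (3 and 5) and Stomach (3 and 7). The share of all genes that separated in this way was not counted, and 2 libraries against 2 can separate without a difference.

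Testis and Thymus were among the 5 with overlap. Testis Alas2 had 12 and 8.30 CPM with Cisplatin and 6.80 and 11.2 CPM with CMCTween (0.22 ± 0.43, adjusted p = 0.898). Thymus had 3.34 and 3.44 CPM with Cisplatin and 4.84 and 1.31 CPM with CMCTween.

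**Figure D4:**
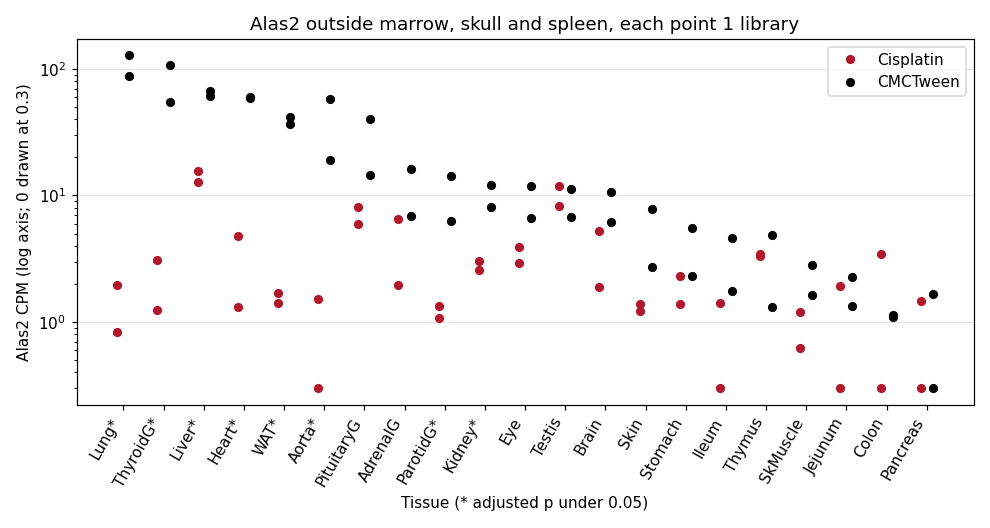
Alas2 CPM (log axis, 0 drawn at 0.3) in the 21 tissues other than BM, Skull and Spleen, 1 point per library, with Cisplatin beside CMCTween, and a star where the adjusted p is under 0.05. Cisplatin is called lower in 8 tissues and overlaps CMCTween in 5.

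The other 7 drugs set against CMCTween gave 4 calls in 105 tests of members in BM, Skull and Spleen (3.81%, against 0.318% of all gene tests). EMPA gave 2 of them, both higher, in BM, where 0.838% of all genes were higher. Slc4a1 had 2273 and 2465 CPM in the EMPA libraries and 1333 and 1639 CPM in the CMCTween libraries, a log2 change of 0.72 ± 0.17 (adjusted p = 0.0319). Klf1 had 154 and 128 CPM with EMPA and 74.7 and 94.9 CPM with CMCTween (0.77 ± 0.19, adjusted p = 0.0238). Alas2 had 1701 and 1859 CPM against 1114 and 1344 CPM (0.58 ± 0.25, adjusted p = 0.286), Trim10 had 488 and 493 CPM against 375 and 372 CPM (adjusted p = 0.352), and Gata1 had 75.8 and 69.6 CPM against 54.4 and 63.3 CPM (adjusted p = 0.479). The groups did not overlap for any of the 5, but 2 libraries against 2 can separate without a difference. The share of all genes that separated was not counted.

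Neither EMPA call held when single libraries were left out. The Slc4a1 call was lost when any 1 of its 4 libraries was left out, with an adjusted p of up to 0.30, and the Klf1 call was lost without either CMCTween library or without EMPA replicate 1. Of the other red cell genes 8 of 49 were higher in BM with EMPA and none was lower (median 0.48, with 44 of 49 above 0). Among them were the haem enzymes Cpox and Urod, the membrane genes Rhd, Add2 and Icam4 (107 CPM with EMPA and 59.9 CPM with CMCTween, 0.87 ± 0.21), Cldn13, and Tal1 (331 CPM against 220 CPM, 0.63 ± 0.14, adjusted p = 0.00721). That count was 0 without CMCTween replicate 3 and 2 without any 1 of the other 3 libraries. Against the same CMCTween libraries, the set's other drugs but Cisplatin had from 29 (Clozapine and Lenalidomide) to 43 (Dox) of 49 above 0, with none called. In the EMPA libraries 3 of 12 cell cycle genes were higher. The neutrophil genes summed to 62290 and 69770 CPM with EMPA and 81340 and 73210 CPM with CMCTween, with 1 of 12 called lower. The part of these markers was not tested. In Skull and Spleen no member passed with EMPA.

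Teriparatide, a fragment of parathyroid hormone that stimulates bone formation, gave the other 2 calls, both lower, in Skull, where 0.576% of all genes were lower. Alas2 had 251 and 208 CPM in the Teriparatide skulls and 353 and 572 CPM in the CMCTween skulls (-0.69 ± 0.18, adjusted p = 0.0328). Trim10 had 96.9 and 69.3 CPM with Teriparatide and 144 and 191 CPM with CMCTween (-0.70 ± 0.19, adjusted p = 0.037). Slc4a1 had 505 and 364 CPM against 827 and 700 CPM (-0.52, adjusted p = 0.16). Klf1 and Gata1 changed by -0.60 and -0.68 and did not pass. No member overlapped between the groups, but the share of all genes that separated was not counted, so nothing is read from that.

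The skull calls depended on single libraries, and the bone genes also differed between these groups. The Alas2 call was lost without CMCTween replicate 4 or without either Teriparatide library, and the Trim10 call without either CMCTween library or without Teriparatide replicate 2. With all libraries kept, a fit that was not robust also lost the Alas2 call. DESeq2 and the set alone in the fit each lost the Trim10 call. Both calls were lost with a replicate block. The bone genes summed to 116300 and 119800 CPM in the Teriparatide skulls and to 60790 and 46370 CPM in the CMCTween skulls, with 7 of 8 higher, and the neutrophil genes to 17450 and 14880 CPM against 28320 and 27740 CPM. The part of the bone transcripts in the members' change was not tested. Of the other red cell genes 4 of 49 were lower (Cpox, Rhd, Car2 and Bnip3l, median -0.54), and 32 of 49 when column sums were used as library sizes, a scaling that moved the median of all genes by -0.31. In BM no member passed with Teriparatide.

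**Figure D5:**
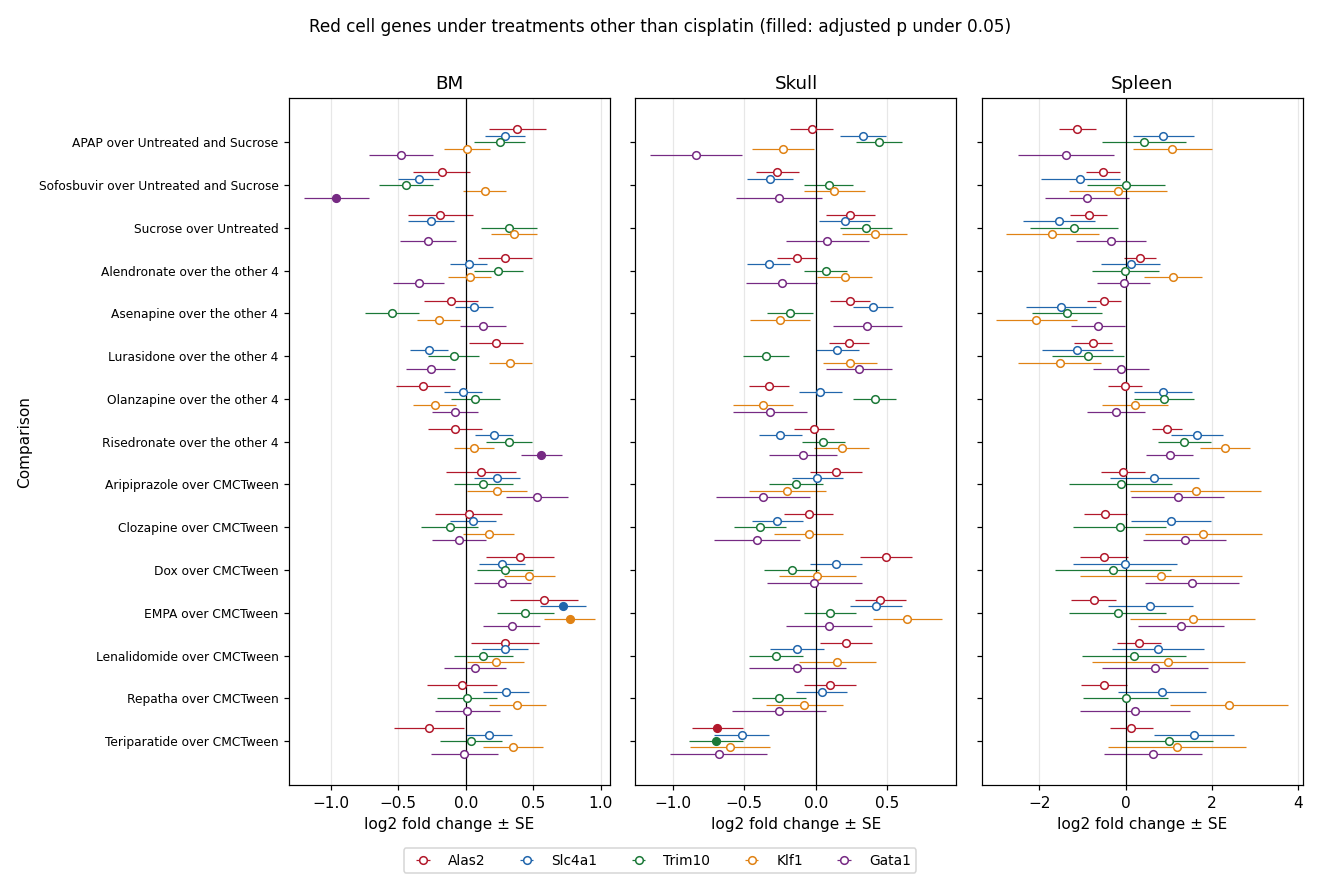
Log2 fold change (with its SE) of the 5 members in BM, Skull and Spleen for the 15 comparisons other than Cisplatin, filled where the adjusted p is under 0.05. The filled points are Slc4a1 and Klf1 with EMPA and Gata1 with Sofosbuvir and Risedronate in BM, and Alas2 and Trim10 with Teriparatide in Skull.

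APAP, Sofosbuvir and Sucrose gave 1 call in 45 tests (2.22%, against 4.1% of all gene tests). It was Gata1 in BM with Sofosbuvir, at 25.0 and 21.1 CPM, against 43.5 and 37.0 CPM with Sucrose and 44.9 and 47.7 CPM in Untreated mice. The change was -0.96 ± 0.24 (adjusted p = 0.0363), where 0.152% of all genes were lower. Both Sofosbuvir libraries lay below all 4 controls, but the call was lost without 5 of the 6 libraries and with Sucrose alone as the control. None of the other 4 members passed with Sofosbuvir in BM. No member passed with APAP in these 3 tissues, and its nearest was Alas2 in Spleen (-1.12, adjusted p = 0.101).

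The set without a control gave 1 call in 75 tests (1.33%, against 2.45% of all gene tests). Gata1 in BM had 142 and 133 CPM with Risedronate, a bone resorption inhibitor, and 76.9 to 126 CPM in the 8 libraries of the other 4 drugs (0.56 ± 0.15, adjusted p = 0.00634). Of all genes 6.08% were higher in that comparison, and the call was lost without Risedronate replicate 1 and with DESeq2.

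Risedronate spleens differed widely between their replicates. Alas2 had 781 and 403 CPM, Slc4a1 461 and 190 CPM, Trim10 119 and 55.7 CPM, Klf1 107 and 19.6 CPM and Gata1 43.9 and 12 CPM, with the first value from the same library each time. No member passed, with Klf1 nearest at 2.29 ± 0.58 (adjusted p = 0.0539), where 1.25% of all genes were higher. Of the other red cell genes 8 of 47 were higher (median 1.25, with 44 above 0), among them Car2 (591 CPM with Risedronate and 188 CPM in the other drugs) and Hemgn, a nuclear protein of red cell precursors (174 CPM against 43.4 CPM). That count was 0 without Risedronate replicate 1 and 20 without Risedronate replicate 2. It also moved when libraries of the other drugs were left out, to 0 without Lurasidone replicate 1, 2 and 5 without Asenapine replicates 3 and 4, 3 without Olanzapine replicate 2 and 13 without Alendronate replicate 1. With Asenapine left out of the drugs it was set against, the count was 0. In the same comparison 5 of 12 cell cycle genes, 2 of 7 megakaryocyte genes and 1 of 9 neutrophil genes were higher. The cell cycle genes summed to 1929 and 1058 CPM in the Risedronate spleens, the megakaryocyte genes to 571 and 405 CPM and the neutrophil genes to 1361 and 382 CPM, and the part of these markers was not tested.

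In the 21 other tissues the 15 comparisons without Cisplatin gave 7 calls in 315 tests (2.22%, against 2.63% of all gene tests), all of them Alas2. In Liver it had 84.8 and 74.9 CPM with APAP, against 129 and 150 CPM with Sucrose and 180 and 172 CPM in Untreated mice (-0.94 ± 0.16, adjusted p = 3.49e-05), where 8.75% of all genes were lower. In ThyroidG it had 7.48 and 9.84 CPM with Dox, against 55.0 and 107 CPM with CMCTween (-3.23 ± 0.72, adjusted p = 0.048), where 0.391% of all genes were lower. In Testis it had 20.4 and 19.2 CPM with Asenapine, against 4.27 to 12.8 CPM in the other drugs (1.2, adjusted p = 0.0267), where 1.63% of all genes were higher. These 3 were called under all 4 alternative settings run on those tissues.

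The remaining 4 calls were lost under at least 1 of those settings. In ParotidG Sucrose had 19.0 and 14.5 CPM, against 20.9 and 36.3 CPM in Untreated mice (-1.16, adjusted p = 0.00706), and Asenapine had 4.60 and 5.24 CPM, against 6.15 to 19.5 CPM in the other drugs (-1.40, adjusted p = 0.0335). In Skin Olanzapine had 13.5 and 12 CPM, against 2.59 to 11.6 CPM in the other drugs (1.51, adjusted p = 0.0479). In WAT APAP had 88.6 and 49.3 CPM, against 27.6 and 41.1 CPM with Sucrose and 24.3 and 50 CPM in Untreated mice (0.96 ± 0.32, adjusted p = 0.0428), and these groups overlapped. The shares of all genes called in the same direction were 8.62%, 3.91%, 6.95% and 9.29% in these 4 comparisons, in the order given. With column sums as library sizes none of the 4 passed, a scaling that moved the median of all genes by 0.40 and 0.21 in the ParotidG comparisons, by -0.11 in Skin and by -0.01 in WAT.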

How the data were processed

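The deposited values are the authors' raw read counts per gene, 1 table per tissue, used as deposited. Per the labels' protocols, tissues were frozen, RNA was extracted with Trizol and libraries were made for 3′ ends. Per the submitters' processing notes the tools were bcl2fastq 2.17, TopHat2 2.1.1 (mm10) and HTSeq 0.9.1. The gene annotation and strand setting are not given in the sources used here. A 3′ library counts transcript ends, so a gene whose annotated end differs from the one used, or that shares it with a copy, can lose reads.

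CPM values use column sums. Counts were tested in R 4.3.3 with edgeR 4.0.16 (filterByExpr with a minimum count of 10, TMM, robust quasi-likelihood F test), with the 18 groups of a tissue in 1 fit (18 residual degrees of freedom, 20 in Brain and Jejunum), or the 24 Untreated tissues in 1 fit. P-values were adjusted over all genes of a comparison by Benjamini-Hochberg at 0.05, and an adjusted p without a tool is from edgeR. The SE is the log2 change over the square root of F. For groups said not to overlap or to be separate, the share of all genes that did so was not counted. Across tissues, log2 means used a pseudocount of 1 CPM. The scripts were tested on simulated data.

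The members and lists were chosen with earlier results of these data known. Named were all members and, per list, up to 4 genes by mean CPM, first those that passed. Zfpm1, Epor, Kit, Gata2, Ldb1, Nfe2, Vpreb1, Igll1, Hemgn, Bpgm, Ube2l6 and the list genes named with EMPA include names outside this rule, chosen after their values were seen. Some genes that the rule would name are not reported here. Alternatives were column sums, RLE scaling, all genes with a count, DESeq2 1.42.0, a fit of the library set alone, other reference groups, a replicate block, each library left out, and, added after seeing the data, a fit that was not robust, a mean of the set's other groups but cisplatin, and the set with no control without Asenapine. Where a group had 0 counts, folds are bounds against 3 counts over the group.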

Additional observations from a re-analysis of the deposited data

Results flagged for a closer look

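In the groups with 4 libraries, 1 library stood apart from the other 3 by Dixon's criterion in 4 of 6 checks of a member. In all 4 the other libraries were at 0, where any read meets the criterion, so the usual chance rate of 1 in 20 does not hold and nothing is read from them. With Asenapine in Brain these were Slc4a1 at 3.17 CPM, Trim10 at 1.22 CPM and Klf1 at 1.22 CPM. With Sofosbuvir in Jejunum it was Gata1 at 1.35 CPM. The values rest on very few reads.

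Alas2 moved in opposite directions in a pair of tissues under the same drug on 2 occasions, and neither difference was tested. With APAP it was higher in WAT and lower in Liver, and the log2 changes differed by 1.90. With Asenapine it was higher in Testis and lower in ParotidG, and the changes differed by 2.60.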

How the results depend on the processing

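With Cisplatin, all 5 members stayed called in BM and in Skull under all 8 settings and with each of the 4 libraries left out. The red cell genes called lower numbered 44 to 48 in BM and 44 in Skull over the settings, and 44 to 45 and 40 to 42 with libraries left out. The 9 calls in other tissues became 8 to 11. In Spleen the members called became 3 with DESeq2 and 2 against all other groups of the set. The red cell genes there (6) became 10 without the robust fit, 10 with DESeq2, 11 against all other groups, 4 with the replicate block and 1 to 5 with a library left out.

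For the other drugs of the CMCTween set (4 calls), the count was 2 with the set alone in the fit, 49 against all other groups, a mean that holds the Cisplatin libraries, and 2 to 5 with a library left out. For APAP, Sofosbuvir and Sucrose (1 call) it was 2 with column sums, 4 with all genes, 2 without the robust fit, 0 with DESeq2, 6 with the set alone, 3 against Untreated, 0 against Sucrose and 0 to 1 with a library left out. For the set with no control (1 call) it was 2 with column sums, 2 with RLE, 5 with all genes, 4 without the robust fit, 0 with DESeq2, 2 with the set alone and 0 to 3 with a library left out. The 7 calls in other tissues became 4 with column sums and 24 with all genes.

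The 8 red cell genes called with EMPA in BM became 17 with all genes, 13 with DESeq2, 13 with the set alone, 39 against all other groups and 0 to 2 with a library left out. The 4 called with Teriparatide in Skull became 32 with column sums, 13 with all genes, 7 with the set alone, 1 against all other groups, 19 against those but Cisplatin and 0 to 3 with a library left out. The 8 called with Risedronate in Spleen became 16 with all genes, 22 without the robust fit, 4 with the set alone and 0 to 20 with a library left out. The 0 differences called between Spleen and BM became 0 to 1.

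Against all other groups, the changes with Teriparatide in Skull turned to 0.14 for Klf1, 0.70 for Slc4a1 and 0.41 for Trim10. That mean holds the Cisplatin skulls, where these genes were nearly at 0, so these signs do not bear on Teriparatide against CMCTween. Gata1 with Risedronate in Spleen ran from -0.18 without Risedronate replicate 1 to 1.69 without replicate 2, and with Cisplatin in Spleen from -4.69 without Cisplatin replicate 3 to 0.97 without Cisplatin replicate 1. The causes of these Gata1 ranges were not tested.

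Replicate numbers showed no clear pairing of treatments within a tissue. Deviations of libraries with the same number correlated with a median of 0.05 over 53 pairs of treatments, from -0.17 to 0.31. Of these, 15 were above 0.1 and 4 under -0.1. Between tissues only 1 pair could be compared, Untreated BM and Spleen (-0.16). Whether a number marks the same mouse in several tissues therefore stays unknown. With the number as a replicate block, the other drugs of the CMCTween set gave 0 calls, APAP, Sofosbuvir and Sucrose gave 0, EMPA gave 1 red cell gene and Teriparatide 0, and Gata1 changed by -0.09 with EMPA in BM and 0.26 with Cisplatin in Spleen. EMPA and CMCTween share no number in BM, so that value rests on the numbers of the set's other drugs. In the set with no control, Asenapine shares no number with the other 4 drugs. With those 4 alone set against each other the set gave 1 call and 2 with the replicate block, and the 8 red cell genes called with Risedronate in Spleen became 0 without and with the block.

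Depth limits Spleen and the other tissues most, where a member often rests on under 10 reads per group.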

Other observations

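Hbq1b, the theta globin gene with more counts, had 0 counts in both Cisplatin libraries of BM, against 36 and 57 counts with CMCTween, and 0 in both Cisplatin skulls, against 12 and 20 counts. In Spleen it had 0 counts with Cisplatin and 2 and 1 with CMCTween, which is too few to compare. Hbq1a, the other theta globin gene, had 0 counts in both Cisplatin libraries of BM, against 5 and 9 counts with CMCTween. All 10 genes whose levels over the Untreated tissues were most like those of the members were called lower in BM with Cisplatin.

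Of the hormone and iron signals that act on red cell formation, Epo, the erythropoietin gene, had 0 counts in the 36 libraries of Kidney and in the 36 of Liver and was not tested. Hamp, Hamp2 and Tfr2 were tested in Liver and did not pass. In Liver with Cisplatin, Hamp (hepcidin) had 523 and 756 CPM, against 681 and 553 CPM with CMCTween (adjusted p = 0.883, edgeR). Hamp2 had 24 and 21.5 CPM with Cisplatin and 98.8 and 60.6 CPM with CMCTween, a separation that did not pass (-1.72 ± 0.99, adjusted p = 0.335). Tfr2, the liver transferrin sensor, had 162 and 162 CPM with Cisplatin and 143 and 137 CPM with CMCTween (adjusted p = 0.28). With EMPA, Hamp had 278 and 334 CPM and Hamp2 had 152 and 173 CPM, each separate from the same CMCTween livers, and neither passed (-1.08 ± 0.38, adjusted p = 0.495, and 0.96 ± 0.72, adjusted p = 0.811).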
